A study of Mus musculus with 3 samples.

Results

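F13a1-high nuclei with macrophage transcripts made up 597 of the 30730 nuclei that passed filters in single-nucleus RNA sequencing of mouse abdominal aorta. A nucleus was counted among them when it held at least 3 F13a1 UMIs (unique molecular identifiers, each marking 1 captured transcript), F13a1 made at least 10 of every 10000 of its UMIs, and at least 1 UMI came from Mrc1, Cd163, Mertk or Csf1r. Barcodes were kept with 500 or more UMIs, 300 or more genes and a mitochondrial share of UMIs below 5%. Since F13a1 and those 4 genes chose the nuclei, their levels are given as a description only.

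The nuclei came from 3 libraries, and all animals shared the ApoE-/- genotype on a C57Bl/6 background and a high fat diet. ApoE-/- mice lack apolipoprotein E and accumulate plasma lipoprotein, so there is no library here from mice with the gene intact. The room air library came from ApoE-/- mice kept in room air for 20 weeks. The smoke library came from ApoE-/- mice exposed to cigarette smoke for 20 weeks without an abdominal aortic aneurysm, and the aneurysm library from mice with the same genotype, diet and exposure that had one. Tissue was frozen before nuclei were released and purified on an anti-nucleus bead column. How many animals stand behind each library is not stated in these sources. Each condition is 1 library, so there is no replicate error, no test and no p-value. Every interval is a 95% interval that covers counting error only, and animal, dissection, library and condition cannot be told apart.

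F13a1 encodes the A subunit of coagulation factor XIII, a transglutaminase that cross-links fibrin and other matrix proteins, and it is made by some macrophages and by platelet precursors. Tissue-resident macrophages of the arterial adventitia are known for the scavenger receptors Cd163, which takes up haemoglobin bound to haptoglobin, and Mrc1, the mannose receptor CD206, and for Lyve1, a hyaluronan receptor. Macrophages that take up lipid in atherosclerotic tissue are instead known for Trem2, Gpnmb, Spp1 and lysosomal and lipid-handling genes.

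Depth differed between libraries. Median UMIs per filtered nucleus were 4058.5 in room air, 6225 in smoke and 1443 in the aneurysm library, which also had the fewest filtered nuclei (11022, 14001 and 5707). The F13a1-high nuclei had medians of 3154, 5049 and 1668 UMIs and summed to 472409, 1438082 and 498726 UMIs. Their median mitochondrial share was 1.11%, 0.204% and 0.385%. Filtered barcodes shared between libraries numbered 36 for room air and smoke, 26 for room air and aneurysm and 17 for smoke and aneurysm, and no barcode was an F13a1-high nucleus in 2 libraries. Apoe itself gave 2, 10 and 2 UMIs in the F13a1-high nuclei, or 4.23, 6.95 and 4.01 CPM (counts of UMIs scaled to 1000000 summed UMIs). Those levels lie near the 3.63, 5.44 and 5.02 CPM of all filtered nuclei.

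The share of F13a1-high nuclei was highest in the aneurysm library. They were 118 of 11022 filtered nuclei in room air (1.07%, Clopper-Pearson interval 0.887 to 1.28%), 235 of 14001 in smoke (1.68%, 1.47 to 1.91%) and 244 of 5707 in the aneurysm library (4.28%, 3.77 to 4.83%). The intervals of the 3 libraries did not overlap. The share in smoke was 1.57 times that in room air (1.26 to 1.95), and the share in the aneurysm library was 2.55 times that in smoke (2.13 to 3.04). When each nucleus was thinned at random to 1000 UMIs, the shares were 0.741%, 0.980% and 3.46%. After that thinning the share in smoke was 1.32 times that in room air. Without F13a1-high nuclei holding at least 3 UMIs of another cell class, 56, 72 and 195 nuclei were left, and the shares became 0.508%, 0.514% and 3.42%. The class lists of that filter include Bank1, at 292, 377 and 86.2 CPM in these nuclei, and a fixed number of UMIs is met more often in deeper nuclei.

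Against macrophage nuclei alone the aneurysm library stood further apart. Other macrophage nuclei were defined as those with at least 3 UMIs, and at least 10 per 10000, summed over Csf1r, Mertk, Adgre1, Cd68, Mrc1 and Cd163. They numbered 4057 in room air, 5438 in smoke and 616 in the aneurysm library. F13a1-high nuclei were 2.83% (2.35 to 3.38%), 4.14% (3.64 to 4.69%) and 28.4% (25.4 to 31.5%) of all macrophage nuclei. The aneurysm share was 6.85 times that in smoke (5.81 to 8.07). Fewer other macrophages and more F13a1-high macrophages cannot be told apart in this share. The 2 classes were also gated unlike. Beside F13a1, F13a1-high nuclei needed 1 UMI of 4 macrophage genes, while other macrophage nuclei needed 3 UMIs of 6 genes. A fixed number of UMIs is met less often in shallow nuclei, and the aneurysm library had the lowest median, 1443 UMIs per filtered nucleus. What depth adds to this share was not tested.

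**Figure D1:**
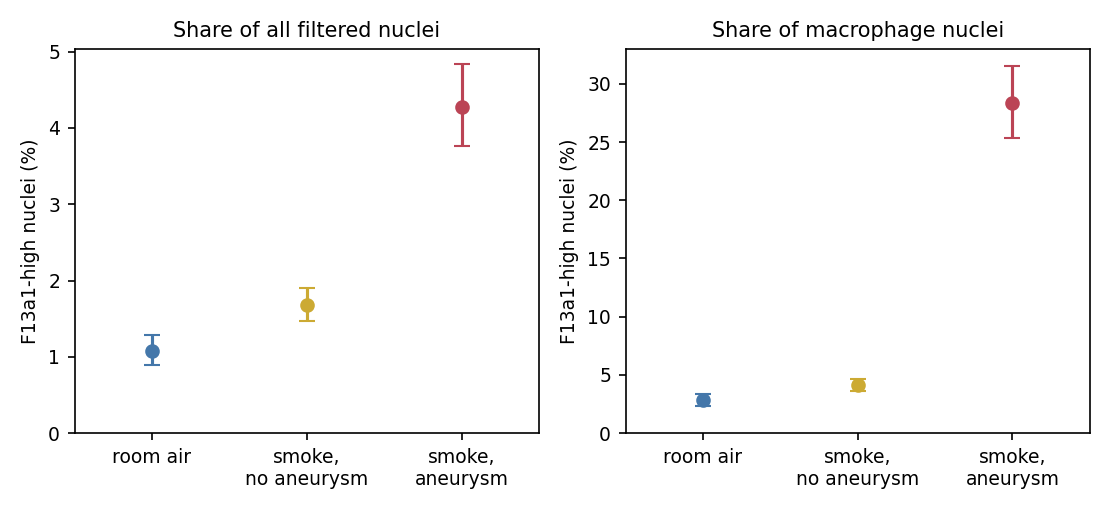
Share of F13a1-high nuclei in each library, among all filtered nuclei (left) and among macrophage nuclei (right), in percent; points are the shares and bars are exact 95% intervals for counting error, with 1 library per condition. The aneurysm library lies at 4.28% and 28.4%, above the room air and smoke libraries in both panels.

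The F13a1 threshold cut through a continuous range. Median F13a1 was 12 UMIs in room air, 18 in smoke and 7 in the aneurysm library, or 39.0, 37.1 and 48.3 per 10000 UMIs. Just inside the threshold, 11, 8 and 37 nuclei had exactly 3 F13a1 UMIs, and 31, 63 and 20 had 10 to 20 per 10000. Just outside, 11, 9 and 36 nuclei met the rate with 2 UMIs, and 24, 83 and 6 had at least 3 UMIs at 5 to 10 per 10000. Nuclei that met the F13a1 threshold with no UMI of the 4 macrophage genes numbered 9, 21 and 14.

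The rule used F13a1, Mrc1 and Cd163, so of the 4 markers of the label only Lyve1 is independent of it, and the shares below are a description. Mrc1 had a UMI in 76.3% of F13a1-high nuclei in room air, 82.6% in smoke and 91.0% in the aneurysm library. Nuclei with endothelial markers, at median depths of 5640, 7276 and 1979 UMIs, had Mrc1 in 7.84%, 7.94% and 3.32%. They served as a rough measure of free RNA, but lymphatic endothelial nuclei were not left out of them. Whether they make some of the transcripts compared here themselves was not tested. Cd163 had a UMI in 22.03%, 30.2% and 35.2% of F13a1-high nuclei, against 0.150%, 0.397% and 0.524% of endothelial nuclei. Lyve1 was sparse, with 6, 76 and 61 UMIs in 5.08%, 15.3% and 17.2% of nuclei, against 0.350%, 1.27% and 0.436% in endothelial nuclei. After thinning to 500 UMIs the Lyve1 shares were 0.847%, 1.70% and 5.33%. Mertk, which the rule also accepts, had a UMI in 52.2%, 57.0% and 29.6% of endothelial nuclei, so a Mertk UMI alone says little of a nucleus in these libraries. All 4 markers of the label were detected together in 3.39%, 8.94% and 6.15% of the nuclei. Cd163 and Lyve1 each had a UMI in a minority of the nuclei of every library.

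F13a1, Mrc1 and Mertk were at like levels in the 3 libraries, while Cd163 and Csf1r were lowest in room air and highest in the aneurysm library. F13a1 stood at 5044 CPM in room air, 4889.8 in smoke and 5316 in the aneurysm library, against 10.4, 15.8 and 90.9 in other macrophage nuclei and 7.32, 10.7 and 14.1 in endothelial nuclei. Mrc1 was at 2415, 2316 and 2458 CPM. Mertk, a receptor for dying cells, was at 682, 755 and 668 CPM, below the 1658, 1796 and 1815 of other macrophage nuclei. Csf1r, the receptor for macrophage colony-stimulating factor, was at 186, 238 and 371 CPM, above the 100.1, 124 and 159 of other macrophage nuclei. In the aneurysm library, F13a1 in other macrophage nuclei was higher than in the other 2 libraries. Cd163 in other macrophage nuclei was at 0.429 CPM in room air, 0.703 in smoke and 24.6 in the aneurysm library. Whether other macrophage nuclei of the aneurysm library include F13a1-high nuclei below the threshold was not tested.

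Markers of other cells were also measured in F13a1-high nuclei. Summed fibroblast markers reached 730, 316 and 215 CPM in F13a1-high nuclei, against 177, 227 and 337 in other macrophage nuclei and 1118, 1162 and 1684 in all other nuclei. Endothelial markers summed to 216, 360 and 197 CPM, against 1909, 1626 and 2413 in all other nuclei. Adipocyte markers summed to 633, 544 and 1037 CPM, against 1060.4, 1396 and 7783 in all other nuclei. All 10 fibroblast and all 11 endothelial markers had at least 1 UMI in each library. Platelet and megakaryocyte markers summed to 2.12, 6.95 and 4.01 CPM, with 9 of 10 genes at 0 in room air and the aneurysm library and 7 of 10 in smoke. That list leaves out Pf4, counted here with the resident genes, at 4.23 CPM in room air and 54.2 in smoke. A platelet source of F13a1 was not tested. Mast cell markers were at 6.35, 6.26 and 18.1 CPM. B and plasma cell markers summed to 322, 433 and 108 CPM, above the 84.4, 131 and 21.6 of all other nuclei. Of these Bank1 alone gave 292, 377 and 86.2. This list had UMIs of 6, 9 and 3 of its 11 genes, with none of Cd79a or Cr2 in any library. Monocyte markers summed to 1679, 805 and 752 CPM, against 990.4, 1064 and 1282 in all other nuclei, and Fn1 gave 1217, 378 and 289 of them. T and NK cell markers summed to 112, 148 and 40.1 CPM, against 245, 366 and 60.4 in all other nuclei, with UMIs of 7, 12 and 4 of 14 genes. Neutrophil markers summed to 61.4, 81.4 and 182.5 CPM, against 40.0, 44.2 and 23.4 in all other nuclei, with UMIs of 2, 5 and 3 of 8 genes.

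Against other macrophage nuclei of the same library, F13a1-high nuclei had higher levels of most resident and class II genes measured and lower levels of most lipid-associated genes, with the counts given below. A gene was called when its CPM ratio was at least 1.5 in either direction with an interval leaving out 1, in the same direction in all 3 libraries. Of 8268 genes with at least 20 UMIs in the 2 sums in each library, 447 were called higher (5.41%) and 441 lower (5.33%), and the median log2 ratio over all of them was -0.08. The nuclei were chosen by genes of this comparison, so these counts describe them and test nothing.

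Several of the 15 leading higher genes encode receptors. Ednrb, the type B endothelin receptor, was at 224 CPM in room air, 356 in smoke and 481 in the aneurysm library, against 5.58, 5.96 and 14.2 in other macrophage nuclei. Its ratio was 40.2 (31.2 to 51.5), 59.7 (51.9 to 68.8) and 34.0 (21.3 to 57.5). Timd4, a phosphatidylserine receptor for apoptotic cells, was at 55.0, 39.6 and 82.2 CPM, against 0.529, 0.360 and 2.98. Clec10a, a C-type lectin, was at 154.5, 199.6 and 375 CPM, against 1.92, 1.91 and 28.3. Siglec1, or sialoadhesin, was at 72.0, 86.2 and 108 CPM, with ratios of 11.8, 12.2 and 16.2. Lpar1, a receptor for lysophosphatidic acid, had ratios of 35.5, 31.2 and 17.7. In all of these genes each library's F13a1-high level was above every library's level in other macrophage nuclei.

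Among secreted and intracellular products, C6, a component of the membrane attack complex, was at 199, 197 and 379 CPM, against 0.429, 0.667 and 16.4. Nrg2, a neuregulin growth factor, was at 125, 216 and 178.5 CPM, with ratios of 33.5, 66.0 and 17.1. Plekhg5, a guanine nucleotide exchange factor, was at 510.2, 604 and 1063 CPM, with ratios of 76.8, 87.9 and 15.0. Abca9, a membrane transporter of the ABC family, was at 334.5, 378 and 800.0 CPM, with ratios of 13.4, 13.2 and 10.8. Mctp2, Ms4a8a and Dnm1 also belonged to the 15 leading genes, with ratios between 14.8 and 63.2 over the 3 libraries.

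A transcription factor was among the leading genes too. Rbpj, the DNA-binding partner of the Notch receptors, was at 6334 CPM in room air, 6464 in smoke and 9989.5 in the aneurysm library. Other macrophage nuclei had 450.4, 368 and 1123 CPM, giving ratios of 14.1 (13.5 to 14.6), 17.6 (17.1 to 18.0) and 8.90 (8.40 to 9.43). Rbpj had a UMI in 83.9%, 89.8% and 97.5% of F13a1-high nuclei and in 51.5%, 53.3% and 30.8% of endothelial nuclei. After thinning to 500 UMIs, it was detected in 62.7%, 66.0% and 93.9% of F13a1-high nuclei and in 8.14%, 6.83% and 9.25% of endothelial nuclei. Hes1, a classical Notch target gene, had 2, 2 and 0 UMIs. Of 33 macrophage transcription factors, 29 were measured deeply enough in all libraries. Of those 29, 8 were higher (Maf, Zeb2, Klf2, Klf4, Mef2c, Nfatc2, Foxp1 and Rbpj) and 3 lower (Nr1h3, Pparg and Bhlhe41), with a median log2 ratio of 0.26. Maf, which drives the tissue-resident macrophage program, was at 279, 373 and 784 CPM, against 41.1, 41.3 and 96.1. Nr1h3 and Pparg, the lipid-sensing receptors LXR alpha and PPAR gamma, had ratios between 0.293 and 0.458.

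Promoters of the leading genes were looked up to show the sequence in front of the genes that mark these nuclei. The windows hold the 250 bases before the RefSeq transcription start on GRCm38.p6, and 12 of the 15 higher genes had an entry. Of F13a1, which chose the nuclei, Cd163, which marks a subset, and Ednrb and Timd4, which the rule did not use, the sequences are given 5′ to 3′ on the strand of the gene, with matches to the motifs named after them in capitals. F13a1 has a second listed start, and the window shown belongs to the upstream start.
F13a1, chr13:37050245-37050494, minus strand: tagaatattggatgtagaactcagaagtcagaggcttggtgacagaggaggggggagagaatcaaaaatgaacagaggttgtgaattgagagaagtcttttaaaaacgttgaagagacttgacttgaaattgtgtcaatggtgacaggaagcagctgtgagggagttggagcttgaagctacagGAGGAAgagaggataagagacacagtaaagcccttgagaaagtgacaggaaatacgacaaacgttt
Cd163, chr6:124304401-124304650, plus strand: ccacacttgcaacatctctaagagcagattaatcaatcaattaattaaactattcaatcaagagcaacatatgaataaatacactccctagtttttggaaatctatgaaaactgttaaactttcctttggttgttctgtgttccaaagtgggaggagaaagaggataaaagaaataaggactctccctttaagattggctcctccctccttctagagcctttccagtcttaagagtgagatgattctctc
Ednrb, chr14:103843702-103843951, minus strand: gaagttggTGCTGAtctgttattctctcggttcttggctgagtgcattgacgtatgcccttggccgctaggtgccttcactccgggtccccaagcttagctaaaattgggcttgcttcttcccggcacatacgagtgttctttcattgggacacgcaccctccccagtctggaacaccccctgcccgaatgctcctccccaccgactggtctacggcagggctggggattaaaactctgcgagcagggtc
Timd4, chr11:46810549-46810798, plus strand: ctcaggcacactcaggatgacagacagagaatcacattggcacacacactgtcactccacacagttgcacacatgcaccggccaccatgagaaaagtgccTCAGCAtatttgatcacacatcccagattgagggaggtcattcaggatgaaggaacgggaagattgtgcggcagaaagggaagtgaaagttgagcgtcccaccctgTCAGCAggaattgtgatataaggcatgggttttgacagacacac

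Both strands were searched for an RBPJ motif (GTGGGAA), a MAF half-site (TGCTGA) and a PU.1 core (GAGGAA). A gene counted when any of its listed starts held the letters. The RBPJ letters were in 0 of the 12 genes, against 6.18% of all 27025 genes with a promoter entry. The MAF half-site was in 4 of 12 (Ednrb, Ms4a8a, Timd4 and Abca9), against 18.0% of all genes, and the PU.1 core was in 5 of 12 (F13a1, Mctp2, Lpar1, Abca9 and Rbpj), against 25.9%. In Abca9 the last 2 motifs overlap. Of the 10 lower genes 7 had an entry, and 2, 2 and 5 of them held the 3 motifs in that order. A match or its absence is a statement on the letters in these short windows, since no binding was measured.

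Genes that were lower included lipid-handling, lysosomal and bridging molecules. Atp6v0d2, a subunit of the proton pump of lysosomes, was at 334.5 CPM in room air, 355 in smoke and 68.2 in the aneurysm library, against 2084, 2006 and 1067 in other macrophage nuclei. Lpl, lipoprotein lipase, was at 121, 159.9 and 108 CPM, against 664, 763 and 598. Mfge8, which bridges apoptotic cells to integrins, was at 14.8, 27.8 and 14.0 CPM, against 190.0, 166 and 163. Cd5l, a secreted scavenger protein of macrophages, was at 127, 53.5 and 36.1 CPM, against 671, 460.4 and 338. Htr2b, Mthfs, Tmem178, Cadm1, Lyzl4 and Ksr2 completed the 10 leading genes, with ratios between 0.0314 and 0.210.

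**Figure D2:**
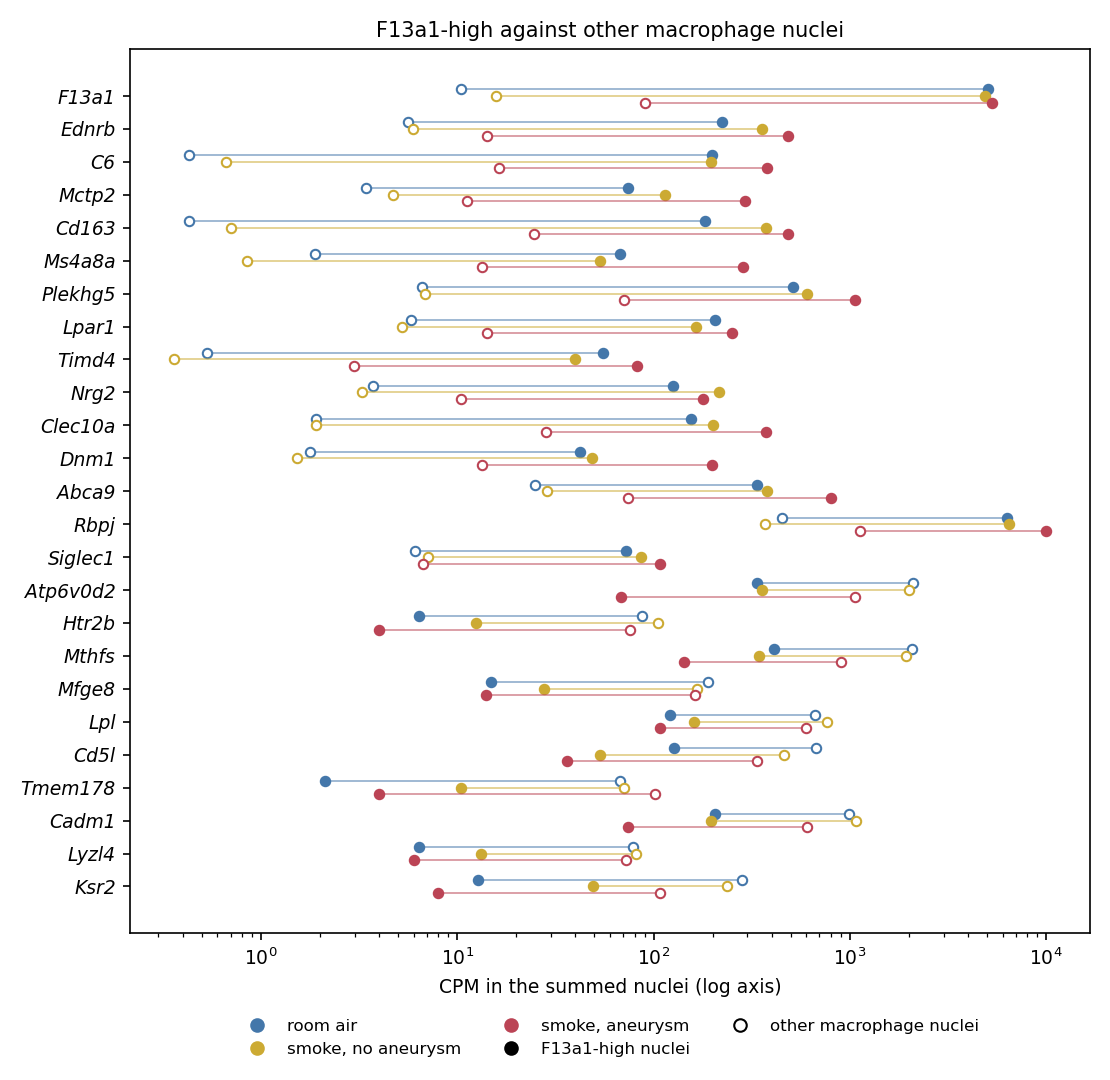
Summed CPM on a log axis for the 15 leading higher and 10 leading lower genes, in F13a1-high nuclei (filled) and other macrophage nuclei (open), 1 colour per library. The classes are apart in all 3 libraries for each gene, and other macrophage nuclei of the aneurysm library have more F13a1 (90.9 CPM) than those of room air (10.4) and smoke (15.8).

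The lists were counted next. Of 24 resident macrophage genes 16 were deep enough, and 14 were higher and 1 lower, with a median log2 ratio of 3.24; F13a1, Mrc1 and Cd163 were among them by choice of the nuclei. The others included Folr2, the folate receptor beta, with ratios of 6.41, 5.71 and 6.36, and Stab1, or stabilin, with ratios of 2.91, 3.21 and 2.38. Igf1, which encodes a growth factor, was the lower gene, with ratios of 0.362, 0.607 and 0.609. None of the 20 lipid-associated genes was higher and 17 were lower, with a median log2 ratio of -1.25. Gpnmb was at 648, 985 and 128 CPM, against 2740, 3284 and 1277, and Trem2 at 33.9, 37.6 and 10.0, against 72.1, 94.9 and 70.8. Mmp12, a macrophage elastase, was at 279, 179 and 42.1 CPM, against 957, 937 and 435. Matrix proteases and inhibitors showed 0 higher and 6 lower of 18.

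Complement and class II genes were counted in the same way. Of 16 complement genes 8 were higher and 1 lower (Itgax), with a median log2 ratio of 1.06. C4b, a component of the classical pathway, had ratios of 33.3, 27.3 and 6.28. Of 6 class II genes 5 were higher, with a median log2 ratio of 2.28. Cd74, the invariant chain, was at 544, 1049 and 283 CPM, against 96.3, 137 and 53.6, and Ciita, the class II transactivator, at 178, 192 and 172, against 47.3, 37.8 and 40.2.

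Most of the measured chemokine, monocyte, interferon and early-response genes were higher. Of 12 chemokines and receptors 8 were higher, among them Ccl2, Ccl6, Ccl8 and Ccr2, and 1 lower (Cxcl16). Ccl8 had ratios of 20.9, 43.1 and 4.71. Ccr2, the receptor of inflammatory monocytes, was at 144, 148 and 84.2 CPM, against 7.33, 11.4 and 12.7. Of 6 monocyte genes 4 were higher, of 10 interferon-response genes 7 were higher, and of 15 immediate early and heat shock genes 9 were higher, with none lower in these 3 lists. Il10, an anti-inflammatory cytokine, had ratios of 6.57, 17.3 and 13.5 on 4, 56 and 20 UMIs. Scavenger and efferocytosis genes were divided, with 8 of 20 higher and 5 lower, Mertk, Msr1 and Lrp1 among the lower.

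Against all other nuclei, 610 of 13984 genes were called higher in each library (4.36%) and 1020 lower (7.29%). The 10 leading genes were F13a1, Cd163, Clec10a, Ms4a8a, Ednrb, C6, Cd209c, Timd4, Mrc1 and Rbpj. Cd163 was at 182, 374 and 483 CPM, against 0.339, 0.551 and 4.74 in all other nuclei. Cd209c, a lectin of the DC-SIGN family, was at 61.4, 35.5 and 36.1 CPM, against 1.11, 0.936 and 0.490.

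Mmp12-high macrophage nuclei, a class with at least 3 Mmp12 UMIs and 10 per 10000, numbered 957, 1193 and 76. Against them 490 of 5063 genes were called higher in each library (9.68%) and 380 lower (7.51%). Lifr, the receptor of leukemia inhibitory factor, was at 457, 446 and 579.5 CPM, against 6.47, 9.62 and 0, and F13a1, Plekhg5, Abca9 and Cd163 were the other genes at the head of this list. With few Mmp12-high nuclei in the aneurysm library, its ratios there have wide intervals.

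The F13a1-high nuclei were not uniform. Clustering of the 597 nuclei (1500 variable genes, Leiden resolution 0.5) gave 6 groups, which are numbered and not named. A lower resolution of 0.3 gave 3 groups (adjusted Rand index 0.717 with the 6) and a resolution of 1 gave 8 (0.591). The genes that lead each group were used to form it and are listed as a description. The clustering used the expression of these same nuclei, so the marker levels by group are a description too. Cd163, Mrc1, Lyve1 and Timd4 were higher in groups 1, 2 and 3 together, with 442 nuclei, than in groups 4 to 6. There Cd163 was at 538 CPM, Mrc1 at 3369.5, Lyve1 at 92.7 and Timd4 at 79.5. In groups 4, 5 and 6, with 155 nuclei, the values were 58.9, 678, 3.33 and 4.45 CPM. Groups 1 to 3 held 60.2% of F13a1-high nuclei in room air, 60.9% in smoke and 93.4% in the aneurysm library. The pooled Timd4 and Cd163 came mainly from groups 1 and 2: group 3 had Timd4 at 4.85 CPM and Cd163 at 162.5, against 10.5 and 147 in group 6. Mrc1 had a UMI in 99.1%, 92.2% and 97.0% of the nuclei of groups 1 to 3 and in 58.3%, 46.4% and 54.8% of those of groups 4 to 6.

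Group 1 (111 nuclei, of which 32 were from room air, 76 from smoke and 3 from the aneurysm library) had the highest F13a1, at 8040.2 CPM, and led with Kctd16, Fgf9, Enpep, Vsig4, Cfap299, Ccl8, Cd209b and Aff3. Vsig4 is a complement receptor of resident macrophages and Cd209b a lectin of the DC-SIGN family. Cd163 was at 806 CPM and Ednrb at 845. Timd4 was at 124.5 CPM and Ccr2 at 17.3. Bank1, known as a B cell adaptor, was at 676 CPM in group 1, with UMIs in 74.8% of its nuclei.

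Group 2 held 232 nuclei, of which 216 were from the aneurysm library, 10 from room air and 6 from smoke. It took 88.5% of the F13a1-high nuclei of the aneurysm library (83.8 to 92.2%), 8.47% of those of room air and 2.55% of those of smoke. Its leading genes were Ttn, Col6a5, Cxcl13, Cdh6, Saa3, Dpf3, Cd55 and Rgs7. Ttn was at 1870.3 CPM, Cd55 at 492 and Cxcl13 at 205. It had no Ttn UMI in its room air and smoke nuclei. Lyve1, at 117 CPM, was level with group 1, Maf was higher, at 793 against 623, and Cd163 was lower, at 505 against 806. Since this group came nearly all from 1 library, the group and that library cannot be told apart.

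Group 3 (99 nuclei, 29 from room air, 61 from smoke and 9 from the aneurysm library) led with Negr1, Clec4b1, Cd74, H2-Eb1, Ctnnd2, H2-Aa, Rnd3 and Diaph3. Cd74 was at 2248 CPM, against 766 in group 1 and 255 in group 2. Its summed class II genes reached 4787 CPM, against 1589 and 809.9. Ccr2 was at 320.1 CPM, and Mki67, a marker of dividing cells, at 102. Cd163 was lower than in groups 1 and 2, at 162.5 CPM.

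Group 4 (96 nuclei, 32 from room air, 59 from smoke and 5 from the aneurysm library) led with Dock3, Gpnmb, Stra6l, Chst11, Atp6v0d2, Ksr2, Syngr1 and Bcar3. Gpnmb was at 2658 CPM, near the 2740.5 and 3284 CPM of other macrophage nuclei in room air and smoke. Summed lipid-associated genes reached 17901 CPM, against 4607 to 5732 in groups 1 to 3. F13a1 was lowest there, at 2423 CPM, Rbpj was at 1398 and Lyve1 had no UMI. Mki67 was at 101.0 CPM.

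Group 5 (28 nuclei, 9 from room air, 18 from smoke and 1 from the aneurysm library) led with Gpr141, Flt3, Bcl11a, Ccdc88c, Dpp4, Dgkg, Cd244a and Gria3. Ccr2 was at 799 CPM, Plac8, a monocyte gene, at 164 and Fn1, fibronectin, at 2097. Flt3, a dendritic cell growth factor receptor, was at 119 CPM, and Lyve1 and Timd4 had no UMI. Its median mitochondrial share was 2.19%, the highest of the 6 groups.

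Group 6 (31 nuclei, 6 from room air, 15 from smoke and 10 from the aneurysm library) led with Cacna2d1, Rspo2, Tafa1, Grin2a, Pdzrn3, Frmd5, Sulf1 and Chrm3. It carried the markers of other cells: fibroblast markers summed to 2419 CPM and endothelial markers to 1953, against 179.7 to 223 and 106 to 209 in the other groups. Summed pan-macrophage markers were lowest, at 3147 CPM. Whether its nuclei were captured together with others or share free RNA was not tested.

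**Figure D3:**
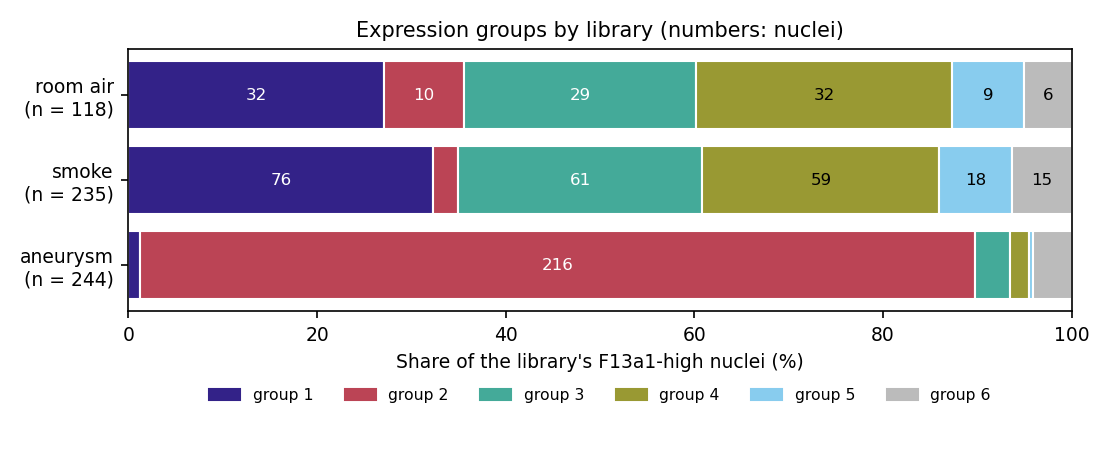
Share of each library's F13a1-high nuclei in the 6 expression groups, in percent, with numbers of nuclei in the larger segments. Room air and smoke have a like make-up, and 216 of 244 nuclei of the aneurysm library are in group 2.

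**Figure D4:**
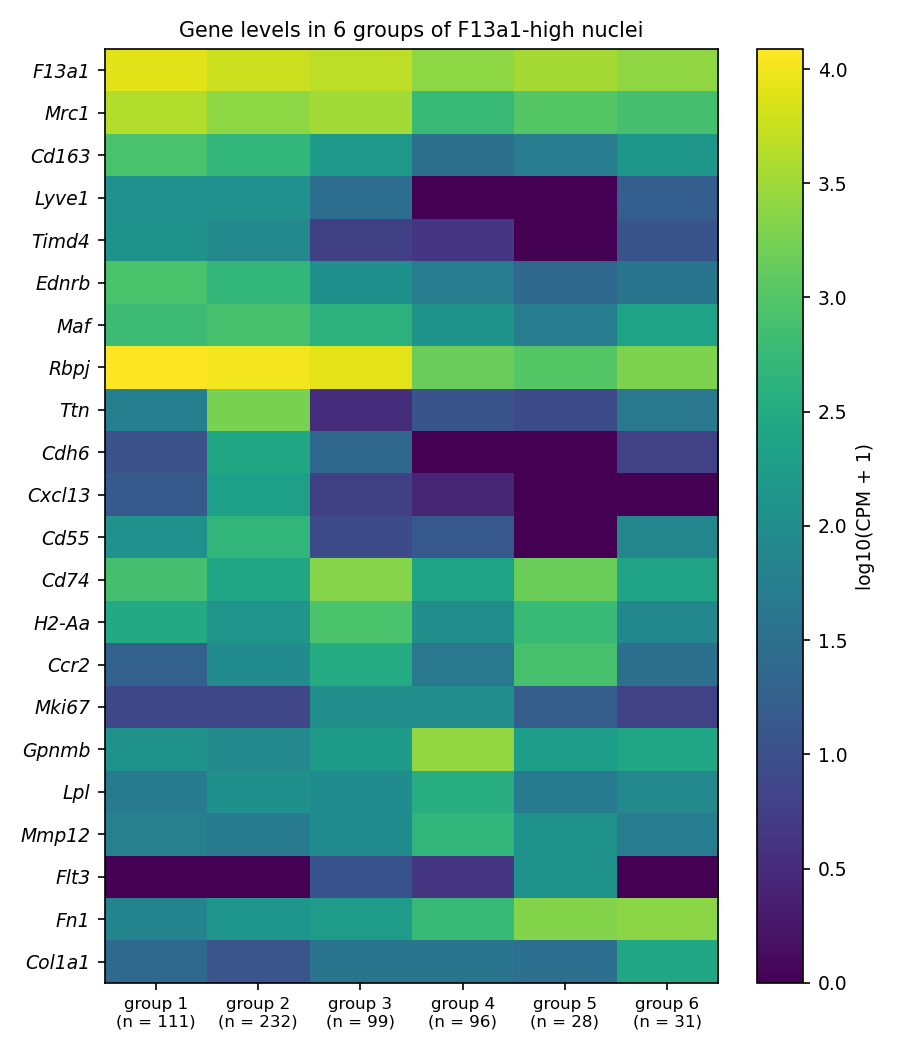
Levels of 22 genes in the 6 groups, as log10(CPM + 1) of summed UMIs over all libraries. Cd163, Timd4 and Ednrb are highest in groups 1 and 2, class II genes in group 3, Gpnmb in group 4 and Flt3 in group 5.

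Smoke was compared with room air among animals without a labelled aneurysm. Among F13a1-high nuclei 498 of 8012 genes were called higher in smoke (6.22%) and 437 lower (5.45%), and the median log2 ratio was 0.06. The groups' make-up was similar in these 2 libraries except for group 2, with 8.47% of the nuclei in room air and 2.55% in smoke. Summed fibroblast markers were at 730 and 316 CPM, so the mixtures were not alike in every respect. In groups 1 to 3 alone, 309 and 228 of 5823 genes were called.

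The 10 named genes higher in smoke included a chemokine, a lectin and several cell cycle genes. Pf4, the chemokine CXCL4, had 2 UMIs in room air and 78 in 35 nuclei of smoke, or 4.23 and 54.2 CPM, a ratio of 12.8 (3.43 to 108). The aneurysm library lay between, at 16.0 CPM. Other macrophage nuclei had a Pf4 ratio of 2.12 (1.27 to 3.73) at far lower levels. Cd209b had 1 UMI in room air and 50 in smoke, in 20 nuclei, a ratio of 16.4 (2.82 to 662). In group 1 alone Pf4 had 1 and 39 UMIs and Cd209b 1 and 49.

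Mki67 was at 10.6 CPM in room air and 69.5 in smoke, a ratio of 6.57 (2.72 to 20.7), and in the aneurysm library at 10.0. The 100 UMIs of smoke came from 19 nuclei, with 40 UMIs in group 3 and 53 in group 4, and without nuclei holding UMIs of another class its log2 ratio turned to -0.65. Knl1, a kinetochore protein, had 1 and 47 UMIs, Diaph3, a formin needed for cytokinesis, 11 and 159, and Cip2a 0 and 30. With a floor of 3 UMIs in place of 0, Cip2a was 3.29-fold higher, and the lower bound of its interval was 2.51. With F13a1 at 2 UMIs and 5 per 10000 the log2 ratios of Knl1 (-0.02) and Diaph3 (-0.27) changed sign, and after thinning to 1000 UMIs that of Diaph3 was -0.38. Of 8 proliferation genes deep enough 6 were higher and none lower, and in groups 1 to 3 this was 3 of 6. The log2 ratio of Cip2a, computed with the floor, was 0.23 in groups 1 to 3.

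In other macrophage nuclei the cell cycle genes had ratios of 1.13 (Mki67), 1.38 (Knl1), 1.14 (Diaph3) and 0.920 (Cip2a). The other 4 genes had ratios above 1 there too. Ftl1, the ferritin light chain, was at 104 and 364 CPM, a ratio of 3.51 (2.61 to 4.80), and its ratio in other macrophage nuclei was 2.03. Cst3, cystatin C, had a ratio of 4.03 (2.18 to 8.27), against 2.42, and C1qb a ratio of 3.33 (2.12 to 5.50), against 1.90. Gapdh had 1 and 42 UMIs, a ratio of 13.8 (2.35 to 558) against 1.93, and its log2 ratio was -0.05 with F13a1 at 2 UMIs and 5 per 10000.

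The lists of resident and class II genes held higher genes in smoke and none lower. Of 23 resident genes 8 were higher and 0 lower (median log2 0.56), among them Lyve1 at a ratio of 4.16, Igf1 at 1.98, Ednrb at 1.59 and Cd163, which the rule used, at 2.06. In groups 1 to 3 these were 5 of 23. Of 7 class II genes 4 were higher, with Cd74 at a ratio of 1.93, and within group 3 this was 5 of 6, while in group 1 it was 0 of 6. Over all genes, 178 of 3406 were called higher within group 3 and 259 of 4341 within group 1. Endothelial markers were higher too in F13a1-high nuclei of smoke, 5 of 7, with a summed level of 360 against 216 CPM, while 3 of 7 fibroblast markers (Col1a1, Col1a2 and Col3a1) were lower, at 316 against 730 CPM, and their part in these results was not tested. None of 18 interferon-response genes was called in either direction. Of the dioxin receptor pathway, Ahr, the receptor, was at 33.9 and 66.1 CPM, a ratio of 1.95, while Cyp1a1 had no UMI in the 3 libraries. Of 12 genes listed for the oxidative stress factor Nrf2 only its inhibitor Keap1 was called, as higher.

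Among the 10 named genes lower in smoke, Il31ra, a cytokine receptor, was at 119 CPM in room air and 28.5 in smoke (4.16-fold lower, 2.73 to 6.38), Lars2, a mitochondrial tRNA synthetase, at 732 and 315, and Cmss1 at 1619 and 741. Other macrophage nuclei had like ratios for these 3 genes, of 0.291, 0.389 and 0.489. Plcb1, a phospholipase, was 2.14-fold lower (1.90 to 2.41) in F13a1-high nuclei, against a ratio of 0.912 in other macrophage nuclei. Baiap2, Arntl, a clock gene, Cblb and Sh2b2 were lower by 1.90 to 2.40 times. Vegfa, the angiogenic growth factor, was at 95.3 and 31.3 CPM, but in groups 1 to 3 its log2 ratio was 1.23 and without nuclei holding UMIs of another class 0.61, the opposite direction. Ctdspl, 2.63-fold lower, also changed sign after thinning, to a log2 ratio of 0.21. Ctdspl and Cblb had log2 ratios in groups 1 to 3 of -0.18 and -0.31.

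Aneurysm against smoke compared smoke-exposed mice with and without aneurysm. Among F13a1-high nuclei 837 of 8140 genes were called higher in the aneurysm library (10.3%) and 1006 lower (12.4%), with a median log2 ratio of 0.0043. Nearly all nuclei of the aneurysm library were in group 2 and few of those of smoke were. No correction between libraries was made before clustering. A different mixture of nuclei and a shift of the whole library therefore cannot be told apart in these values. The smoke library also served in the comparison with room air. Groups 1 to 3 alone gave 686 higher and 544 lower of 6510 genes.

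Among the 10 named genes higher in the aneurysm library, Ttn, the giant sarcomere protein titin, had 5 UMIs in room air, 13 in smoke and 900 in the aneurysm library, where 81 of 244 nuclei carried it and the richest held 48. That is 10.6, 9.04 and 1805 CPM, and the ratio to smoke was 199.6 (116 to 376). All other nuclei had 13.7, 132 and 83.5 CPM, and 3.25%, 3.81% and 2.62% of endothelial nuclei had a UMI. Cdh6, a cadherin, had 0, 0 and 140 UMIs, in 58 nuclei. With the floor in place of 0 it was 135-fold higher than smoke, and the lower bound of its interval was 108. In other macrophage nuclei the ratios were 5.82 for Ttn and 13.3 for Cdh6. In groups 1 to 3 alone, log2 ratios to smoke were 9.65 for Ttn, against 7.64 over all F13a1-high nuclei, and, with the floor, 6.38 for Cdh6, against 7.07.

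Saa3, an acute-phase apolipoprotein made by activated macrophages, was at 2.12 CPM in room air, 4.17 in smoke and 190.5 in the aneurysm library, 45.7-fold higher than smoke (20.2 to 128). Cxcl13, a chemokine that attracts B cells, was at 4.23, 5.56 and 192.5 CPM, 34.6-fold higher (16.9 to 82.4), and in other macrophage nuclei its ratio was 76.3 (37.4 to 163). Col6a5, a collagen VI chain, had 0, 2 and 50 UMIs. Cd55, an inhibitor of complement convertases, was at 16.9, 50.1 and 491 CPM, 9.81-fold higher (7.52 to 12.9), and its ratio in other macrophage nuclei was 21.2. Room air and smoke were low in each of these genes and the aneurysm library was high. The log2 ratios to smoke in groups 1 to 3 were lower, at 4.73 against 5.51 for Saa3, 4.41 against 5.11 for Cxcl13 and 5.49 against 6.17 for Col6a5.

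Dpf3, a chromatin remodelling subunit, was 13.7-fold higher (8.26 to 23.7) and Ms4a8a 5.32-fold higher (4.00 to 7.11). The log2 ratio of Ms4a8a in groups 1 to 3 was 1.71, against 2.41 over all F13a1-high nuclei. Adgre4, an adhesion receptor of myeloid cells, was at 23.3, 41.7 and 261 CPM, 6.25-fold higher (4.57 to 8.63), and Ikbke, an innate immune kinase, 5.57-fold higher (4.26 to 7.31). For Adgre4 and Ikbke the ratios in other macrophage nuclei were smaller, 1.22 (0.750 to 1.88) and 1.84 (1.59 to 2.11). These intervals did not reach those of the F13a1-high nuclei, though the difference was not tested. Saa3 (13.5), Col6a5 (5.36) and Dpf3 (5.69) also had smaller ratios in other macrophage nuclei, while that of Ms4a8a was larger (15.8). Rbpj, at a ratio of 1.55, was called higher too. Csf1r was also called, at 1.56, but the rule accepts a nucleus by a Csf1r UMI, so that ratio is a description only. Of 13 iron and haem genes 4 were higher (Hmox1, Blvrb, Tfrc and Cp) and 2 lower, the ferritin chains Fth1 and Ftl1. Cp, ceruloplasmin, was at 154.5, 147 and 624 CPM, and Tfrc, the transferrin receptor, at 82.6, 59.1 and 202.5.

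**Figure D5:**
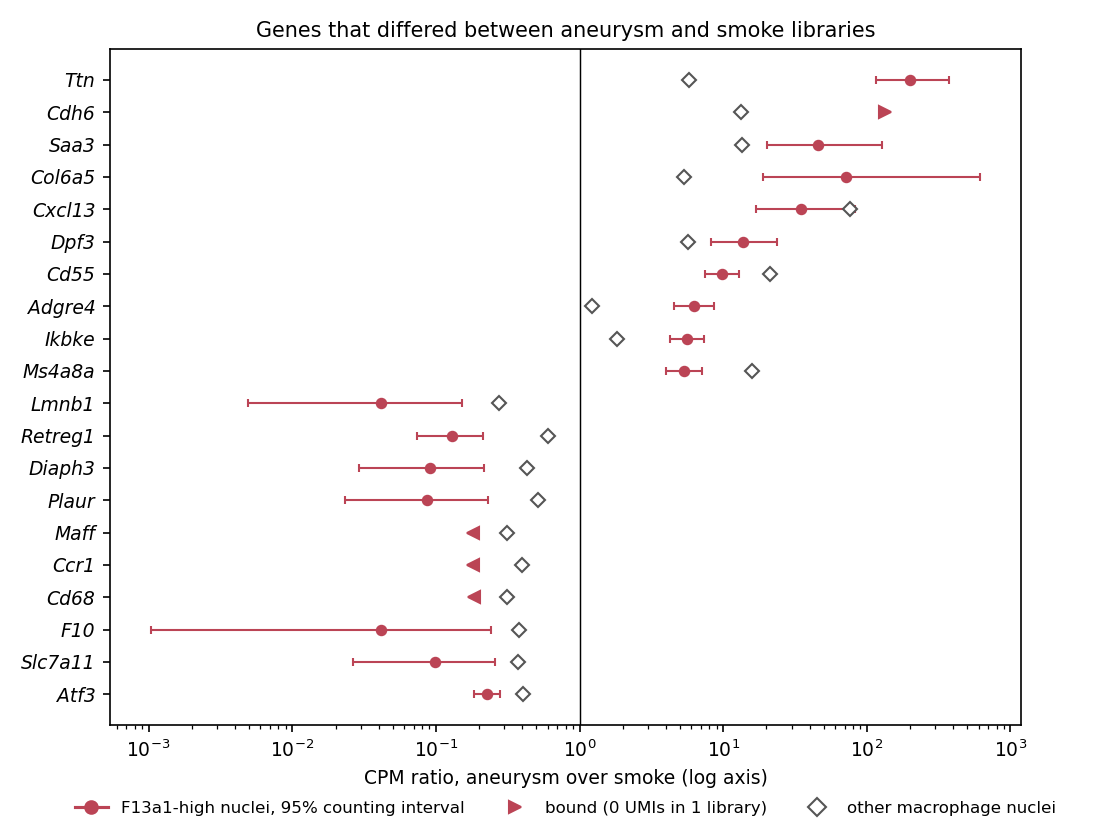
CPM ratio of the aneurysm over the smoke library on a log axis for the 10 leading genes in each direction, in F13a1-high nuclei (circles with 95% counting intervals) and other macrophage nuclei (diamonds); triangles are bounds where a library had 0 UMIs. Ttn, Cdh6, Saa3, Col6a5, Adgre4 and Ikbke have larger ratios in F13a1-high nuclei, with intervals of the 2 classes apart. Dpf3 does too, with intervals that overlap. Cxcl13, Cd55 and Ms4a8a have larger ratios in other macrophage nuclei. Lmnb1, Retreg1, Diaph3, Plaur and Atf3 have smaller ratios in F13a1-high nuclei, with intervals apart. Differences between the classes were not tested. Other macrophage nuclei had Cd163 at 24.6 CPM in the aneurysm library and 0.703 in smoke. Whether F13a1-high nuclei below the threshold are among them and add to these ratios was not tested.

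Among the 10 named genes lower in the aneurysm library, Cd68, a lysosomal glycoprotein of macrophages, had 47 UMIs in smoke and 0 in the aneurysm library, Ccr1 had 48 and 0, and Maff, a small MAF protein, 48 and 0. With the floor in place of 0 these are 5.43-fold, 5.55-fold and 5.55-fold lower, with lower bounds of 4.25, 4.34 and 4.34. Lmnb1, lamin B1, was at 97.3 CPM in smoke and 4.01 in the aneurysm library, 24.3-fold lower (6.596 to 202). Plaur, the urokinase receptor, was at 91.8 and 8.02 CPM, and F10, coagulation factor X, had 69 UMIs and 1. Atf3, a stress-induced factor, was at 894 and 202.5 CPM, 4.42-fold lower (3.60 to 5.46), and in other macrophage nuclei its ratio was 0.405. Retreg1, Diaph3 and Slc7a11 were lower by 7.69, 11.0 and 10.1 times. Other macrophage nuclei had ratios below 1 for all 10 genes. In groups 1 to 3 the log2 ratios were smaller for Plaur (-1.62 against -3.52), Slc7a11 (-1.16 against -3.34), Lmnb1 (-2.96 against -4.60), Retreg1 (-2.33 against -2.94) and, with the floor, Cd68 (-1.57 against -2.44).

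Among the lists, lower calls outnumbered higher ones for lipid, class II and chemokine genes. Of 20 lipid-associated genes 16 were lower and 1 higher (Fabp4), with a median log2 ratio of -1.64, and in groups 1 to 3, which leave out the Gpnmb-rich group 4, 12 were lower and 1 higher. Gpnmb had a ratio of 0.130, Spp1 of 0.175 and Ctsd, a lysosomal protease, of 0.230. Of 7 class II genes 4 were lower and none higher (median -1.44), with Cd74 at 0.269 and H2-Aa at 0.369, and in groups 1 to 3 this was 5 of 6. Of 18 chemokines and receptors 13 were lower and 4 higher, among them Ccl6 and Cxcl13, and of 17 inflammatory genes 9 were lower and 1 higher. Il1b had 47 UMIs in smoke and 0 in the aneurysm library. Of 14 coagulation and matrix-linking genes 7 were lower and none higher (2 of 7 in groups 1 to 3). F13a1 itself had a ratio of 1.09, but it chose the nuclei, so its level cannot be set against theirs. Of 8 proliferation genes 6 were lower and none higher (3 of 7 in groups 1 to 3).

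Resident genes did not share this direction. Of 23 genes 9 were higher and 1 lower (Pf4), with a median log2 ratio of 0.41. Lyve1 was at 52.9 CPM in smoke and 122 in the aneurysm library, Timd4 at 39.6 and 82.2, Maf at 373 and 784, and Selenop, a selenium transport protein, at 217 and 391. In groups 1 to 3, 4 of 23 were called higher, Maf among them, and Pf4 and Fcna lower, and Lyve1, Timd4, Clec10a, Ltc4s and Selenop lost the call when groups 4 to 6 were left out. Adipocyte markers were also higher, 3 of 5 (Lipe, Ghr and Acaca), at a summed 1037 against 544 CPM, and all other nuclei of the libraries had 7783 and 1396. Their part in these results was not tested.

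Aneurysm against room air shares the aneurysm library with the comparison above, so its values are given beside them without an overlap. Of 6001 genes 703 were called higher (11.7%) and 739 lower (12.3%), with a median log2 ratio of 0.05. Ttn was 170.5-fold higher (72.8 to 526), Cd55 29.0-fold (14.5 to 67.9), Saa3 90.0-fold (15.8 to 3591) and Cxcl13 45.5-fold (12.2 to 381). Cdh6 and Col6a5, with 0 UMIs in room air, were 44.2-fold and 15.8-fold higher with the floor in place of 0, with lower bounds of 35.5 and 12.4. Resident genes were called higher in 14 of 20 and lower in none, with Lyve1 at 9.63, Ednrb at 2.15 and Cd163, which the rule used, at 2.65. In groups 1 to 3 resident genes were higher in 7 of 20, with Mrc1 lower. There 533 of all 4905 genes were called higher and 367 lower. Lipid-associated genes were lower in 17 of 20 and higher in none, and in groups 1 to 3 lower in 6 of 17 and higher in 2.

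Bhlhe40, a transcription factor of the circadian and immune response, was at 135.5 CPM in room air, 79.3 in smoke and 8.02 in the aneurysm library, 16.9-fold lower than room air (6.29 to 63.9), against a ratio of 0.517 in other macrophage nuclei. Gla, a lysosomal galactosidase, was 10.03-fold lower (4.33 to 28.5), and Lmnb1 15.8-fold lower. Morrbid, Alcam and Plcb1 were 10.1-fold, 7.05-fold and 6.46-fold lower. Of these 3, Alcam had a log2 ratio of 0.037 in groups 1 to 3, the opposite direction. There Morrbid stood at -0.018, Plcb1 at -0.65 and Bhlhe40 at -1.93, against -3.33, -2.69 and -4.08 over all F13a1-high nuclei.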

How the data were processed

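The authors deposited raw UMI counts per gene and barcode for 3 libraries, and counts are whole numbers per the file headers, which name cellranger 8.0.1. Cell Ranger 2.2.0, STAR and mm10 are given per the submitters' processing notes, and which of these made the deposited counts could not be settled, so no coordinate is taken from the files. Counts were summed per library over the F13a1-high nuclei and each comparison class (Python 3.11.15, numpy 2.4.6, scipy 1.17.1), with CPM ratios and exact conditional 95% intervals. A called gene had at least 20 UMIs in both sums together, a ratio of at least 1.5 and an interval leaving out 1. The members and lists were chosen with earlier results of these data known, so no pattern is independent support, and no set test was run. The ratio script was tested on simulated data.

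Groups came from scanpy 1.11.5 (20 components, 15 neighbours). Named genes were the 15 higher and 10 lower than other macrophage nuclei and 10 higher than all other nuclei, ranked by the interval bound nearest 1, and up to 10 or 6 per direction between libraries. The latter needed 30 UMIs in the higher library, no nucleus with over 25% of them, a bound 1.2 from 1, and at least the CPM of that library's remaining nuclei. Predicted, mitochondrial, ribosomal and haemoglobin genes were left out, and list members were added as illustrations. Genes outside these rules were chosen after their values were seen. No doublet caller was run, and nuclei holding UMIs of another class were left out as an alternative. Reads from antisense or overlapping genes cannot be told apart here. UMI totals of 73891039, 117247048 and 15634797 over 13189, 14859 and 7348 barcodes set the precision, and a count of 0 was replaced by a floor of 3 UMIs per library. Alternatives covered filters, thresholds, depth, scaling (edgeR 4.0.16 TMM factors) and class definitions. Promoters are RefSeq, GRCm38.p6. Some results are not reported here.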

Additional observations from a re-analysis of the deposited data

Results flagged for a closer look

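Some list genes were at least 1.5-fold higher in F13a1-high than in other macrophage nuclei of 1 library and lower in another, with intervals leaving out 1, and these differences between libraries were not tested. Plaur had ratios of 1.84 in room air, 1.55 in smoke and 0.263 in the aneurysm library, Thbs1 of 3.68, 1.90 and 0.505, Vegfa of 4.83, 1.69 and 0.514, C7 of 1.81, 1.80 and 0.532, and Timp3 of 2.03, 1.71 and 0.455. Hgf was higher in room air (3.21) and lower in smoke (0.445). Cxcl12 and Col1a2 were higher in room air (3.88 and 3.92) and lower in the aneurysm library (0.186 and 0.392). Tek and Egfl7, endothelial markers, were higher in smoke (1.75 and 1.52) and lower in the aneurysm library (0.280 and 0.333). Acod1 and Mki67 were lower in room air (0.378 and 0.370) and higher in smoke (2.72 and 2.14). Tfpi, an inhibitor of tissue factor, was lower in room air (0.247, on 2 UMIs) and higher in the aneurysm library (3.50). Hgf was at 1011 CPM in group 6 and at 23.6 to 117 CPM in the other groups.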

How the results depend on the processing

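No paired analysis was possible because each condition is 1 library. The share of F13a1-high nuclei kept the aneurysm library highest under every setting run. With no mitochondrial limit its share was 3.55%. With F13a1 at 2 UMIs and 5 per 10000 the shares were 1.38%, 2.35% and 4.94% and the aneurysm to smoke ratio 2.10, and with 5 UMIs and 20 per 10000 they were 0.726%, 1.21% and 2.93%. Without nuclei holding 3 UMIs of another class they were 0.508%, 0.514% and 3.42%, with ratios of 1.01, 6.64 and 6.72 (smoke to room air, aneurysm to smoke, aneurysm to room air). Among nuclei with at least 1000 UMIs, thinned to 1000, they were 0.741%, 0.980% and 3.46%, with an aneurysm to smoke ratio of 3.53. In groups 1 to 3, an alternative chosen after seeing the data, room air was at 0.644% and smoke at 1.02%, and the aneurysm library was 3.91 times smoke and 6.20 times room air.

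Counts of called genes depended on depth and membership. Smoke against room air gave 250 higher and 225 lower without nuclei of another class, 70 and 99 after thinning, 309 and 228 in groups 1 to 3, and 291 lower at the stricter F13a1 threshold. Aneurysm against smoke gave 514 and 598, then 228 and 255, and 544 lower in groups 1 to 3. Aneurysm against room air gave 427 and 476, then 172 and 248, 367 lower in groups 1 to 3, and 464 higher with at least 50 UMIs per gene. Against other macrophage nuclei, thinning gave 286 higher and 240 lower, groups 1 to 3 gave 670 lower, and other macrophage nuclei defined by Ptprc and the 4 rule genes gave 667 lower. Thinning and fewer nuclei leave fewer UMIs. Otherwise the cause was not tested.

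Of 805 values of named genes under alternatives 665 stayed within the main interval, 131 moved and 9 changed sign. For genes against other macrophage nuclei, that interval ran from the lowest lower bound to the highest upper bound of the 3 libraries. It was wide, as for C6 with ratios of 14.8 to 902, so a value staying within it says little. The changes of sign, as log2 ratios for smoke against room air, were Knl1 (-0.024), Diaph3 (-0.27) and Gapdh (-0.048) with F13a1 at 2 UMIs and 5 per 10000, Mki67 (-0.65) and Vegfa (0.61) without nuclei of another class, Diaph3 (-0.38) and Ctdspl (0.21) after thinning, and Vegfa (1.23) in groups 1 to 3. For aneurysm against room air Alcam (0.037) changed sign in groups 1 to 3. Genes with few UMIs in the aneurysm library cannot be called absent at its depth.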
